A study of Mus musculus with 2 samples.

Results

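The cytosolic ribosomal protein genes were followed in macrophages of mouse epididymal fat after one night of high-fat feeding. Members were taken by symbol, as names that start with Rps or Rpl and a digit together with *Rplp0*, *Rplp1*, *Rplp2* and *Rpsa*, leaving out the S6 kinase genes and names with -ps. The name rule found 86 of the 31053 genes in the files, and 83 of these had at least 100 UMIs in the kept cells. A UMI is a molecular tag that marks 1 captured RNA molecule. The 83 members comprised 33 small subunit genes, 46 large subunit genes, the 3 stalk genes and *Rps19bp1*, which carries a ribosomal protein in its name but encodes a binding partner of one. The 3 genes left out for low counts were the testis and muscle paralogs *Rpl10l* with 2 UMIs, *Rpl39l* with 12 UMIs and *Rpl3l* with 7 UMIs.

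Male C57/BL6 mice of 8 to 12 weeks of age received chow diet (CD, 11 kcal% fat) or high-fat diet (HFD, 58 kcal% fat) overnight. Cells of 3 mice per diet were pooled, sorted as CD45+ Lin- Ly6C low or negative F4/80+ adipose tissue macrophages (ATMs) and run as 1 droplet library per diet with 10x Genomics 3′ V2 chemistry. Each diet was therefore 1 library and the cells were not replicates, so no difference below has a test, and every 95% interval covers counting error only. Cells with 200 to 3500 genes and at most 10% mitochondrial (mt-) UMIs were kept.

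Ribosomal proteins coat the ribosomal RNA of the 2 subunits, and cells make them in near equal numbers because each one is used once per ribosome, apart from the stalk proteins. Their mRNAs are among the most abundant in any cell and typically begin with a C followed by a run of pyrimidines, the terminal oligopyrimidine tract, through which growth signals acting on mTORC1 and LARP1 set how well they are translated. Resident fat macrophages that carry *Lyve1*, the hyaluronan receptor, and cells that came more recently from monocytes and carry the chemokine receptor gene *Ccr2* live side by side in this tissue.

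The start sites of some members that departed from the rest, or that are printed for comparison, were read for the tract feature on which the family is known to be regulated. Each window is 30 bases of the reference genome (RefSeq, GRCm38.p6), from 10 bases before the annotated start onwards, written 5′ to 3′ on the gene's strand. Capitals mark the longest run of C and T that opens with a C followed by at least 4 pyrimidines and starts within 10 bases of the annotated start.
*Rps27* (chr3:90213629-90213658, minus strand): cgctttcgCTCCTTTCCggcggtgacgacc
*Rps27rt* (chr9:114982720-114982749, minus strand): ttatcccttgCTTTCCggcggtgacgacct
*Rplp2* (chr7:141447641-141447670, plus strand): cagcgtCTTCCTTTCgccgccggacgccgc
*Rplp0* (chr5:115559457-115559486, plus strand): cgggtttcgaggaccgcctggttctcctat
*Rps21* (chr2:180257369-180257398, plus strand): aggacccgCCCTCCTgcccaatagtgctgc
*Rpl12* (chr2:32961702-32961731, plus strand): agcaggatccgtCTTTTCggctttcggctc
*Rpl7l1* (chr17:46782637-46782666, minus strand): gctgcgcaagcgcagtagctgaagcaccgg
The windows of *Rps27* and *Rps27rt* shared an unbroken run of 19 bases that held the end of the tract. The windows of *Rplp0* and *Rpl7l1* held no tract that started within 10 bases of the annotated start. No promoter was found for *Rplp1*, *Rps29* or *Rpl7*, which also departed. A promoter was found for 63 members, and 34 of them (54.0%) had a tract in the window, against 8325 of 27025 promoters of the whole table (30.8%). With the C at the annotated start base itself, the counts were 13 of 63 members (20.6%) and 673 of 27025 promoters (2.49%). The letters were searched on the gene's strand, and the annotated start need not be the start used in these cells. The 83 members lay on 19 chromosomes, with 14 of them on chromosome 7.

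The CD library held 4459 barcodes and 15003119 UMIs, of which 2364 cells were kept at a median of 4490.5 UMIs per cell. The HFD library held 3163 barcodes and 9164686 UMIs, with 2021 kept cells at a median of 2792 UMIs. The 2 libraries had 14 barcodes in common, 7 of them kept in both. Cells were gated on at least 1 UMI of *Lyve1*, *Ccr2* or *Plac8*, or on at least 10 UMIs of the lysozyme gene *Lyz1* (Lyz1-high). Of 9 further resident macrophage markers, 9 had a higher CPM (the UMIs of a gene per 1000000 UMIs of the gate) in Lyve1+ than in Lyz1-high cells in each library, and 4 of 4 further monocyte-derived markers had the opposite order. *Plac8* marks monocytes, and 5 of 6 further monocyte markers in CD and 6 of 6 in HFD were higher in Plac8+ than in Lyz1-high cells. Gates overlapped, since 531 of 555 Lyz1-high CD cells and 603 of 672 Lyz1-high HFD cells were also Ccr2+.

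Summed over the cells of these overlapping gates, ribosomal protein mRNA took up a similar part of all UMIs in HFD and CD. Lyve1+ cells had a far lower share than the other gates in each library. In Lyve1+ cells the members made up 12.7% of UMIs in CD (1172 cells) and 12.5% in HFD (415 cells), a difference of -0.210 percentage points (-0.272 to -0.148). In Ccr2+ cells they made up 16.1% in CD (1326 cells) and 16.7% in HFD (1131 cells), a difference of 0.604 points (0.566 to 0.642). The share was thus slightly lower in HFD in the resident gate and slightly higher in the *Ccr2* gate. The make-up of the *Ccr2* gate differed too. Of Ccr2+ cells, 37.5% in CD and 13.6% in HFD were also Lyve1+, and 40.0% and 53.3% were also Lyz1-high. The part that the mix of cells had in the difference of either gate was not tested. In Lyz1-high cells the shares were 17.5% in CD (555 cells) and 17.5% in HFD (672 cells), a difference of 0.0602 points (0.0115 to 0.109). In Plac8+ cells they were 18.1% in 42 CD cells and 18.03% in 73 HFD cells, and the interval of the difference, -0.230 to 0.145 points, held 0. Plac8+ cells thus had the highest share and Lyve1+ cells the lowest in each library. The sign of these differences depended on which cells were counted. In Lyve1+ cells the difference was 0.179 points with at most 5% mt- UMIs and 0.766 points with at least 1000 genes per cell, and among cells in exactly 1 of the 4 gates it was -1.71 points in Lyve1+, -1.63 in Ccr2+ and -2.30 in Lyz1-high cells, the last from 16 CD and 64 HFD cells.

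**Figure D1:**
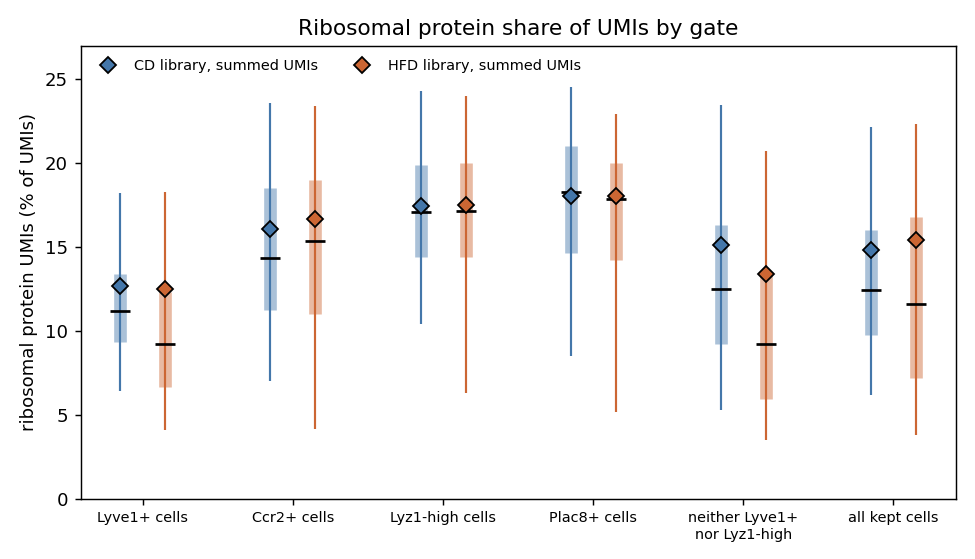
Ribosomal protein UMIs as a percentage of all UMIs (vertical axis) in each gate and library. Diamonds are summed UMIs of the library, black dashes the median over cells, thick bars the quartiles and thin lines the 5th to 95th percentile over cells. The diamonds of the 2 libraries nearly coincide in Lyz1-high cells (17.5% and 17.5%), while the dash of Lyve1+ cells is lower in HFD (9.23%) than in CD (11.2%).

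Sums over cells and single cells did not give the same picture. The median Lyve1+ cell had a ribosomal protein share of 11.2% in CD and 9.23% in HFD, a wider gap than that of the sums. The median Ccr2+ cell had 14.3% in CD and 15.4% in HFD, and the median Lyz1-high cell 17.1% and 17.2%. The HFD library held more cells with very little ribosomal protein mRNA. A share under 5% was found in 16 of 1172 Lyve1+ cells in CD (1.37%) and in 40 of 415 in HFD (9.64%). Among Ccr2+ cells the counts were 26 of 1326 (1.96%) and 81 of 1131 (7.16%). These cells were shallow, with a median of 1161 UMIs in the Lyve1+ HFD cells under 5% against 2467 UMIs in those at or above 5%.

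The share followed the number of UMIs per cell, and the direction of the diet difference in Lyve1+ cells followed it too. Among Lyve1+ cells with 1000 to 2000 UMIs, members made up 8.11% in CD (100 cells) and 7.28% in HFD (139 cells). With 2000 to 4000 UMIs the shares were 10.5% (465 cells) and 10.1% (145 cells), a difference of -0.389 points (-0.494 to -0.283). With 4000 to 8000 UMIs they were 12.8% (487 cells) and 13.7% (59 cells), a difference of 0.892 points (0.769 to 1.02). By summed UMIs, shallow Lyve1+ cells were therefore lower in HFD and deep ones higher. Of those with 4000 to 8000 UMIs, 437 of 487 CD cells and 41 of 59 HFD cells were not Lyz1-high. These had summed shares of 12.3% in CD and 13.1% in HFD, with cell medians of 12.02% and 12.01%. In Ccr2+ cells the HFD share was above the CD share from 2000 UMIs upwards, by 1.03 points (0.927 to 1.13) at 2000 to 4000 UMIs and by 1.63 points (1.57 to 1.69) at 4000 to 8000 UMIs. These Ccr2+ cells include those that were also Lyve1+ or Lyz1-high. In Lyz1-high cells the difference was 1.36 points (1.14 to 1.57) at 2000 to 4000 UMIs, from 40 CD and 104 HFD cells, and 0.106 points (0.0217 to 0.191) at 4000 to 8000 UMIs. The HFD Lyve1+ cells also had fewer mt- UMIs (3.73% against 4.45% in CD) and more of the nuclear RNAs *Malat1* and *Neat1* (4.40% against 3.00%). The part that depth and RNA quality have in the share was not tested, and they cannot be told apart from diet with 1 library each.

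**Figure D2:**
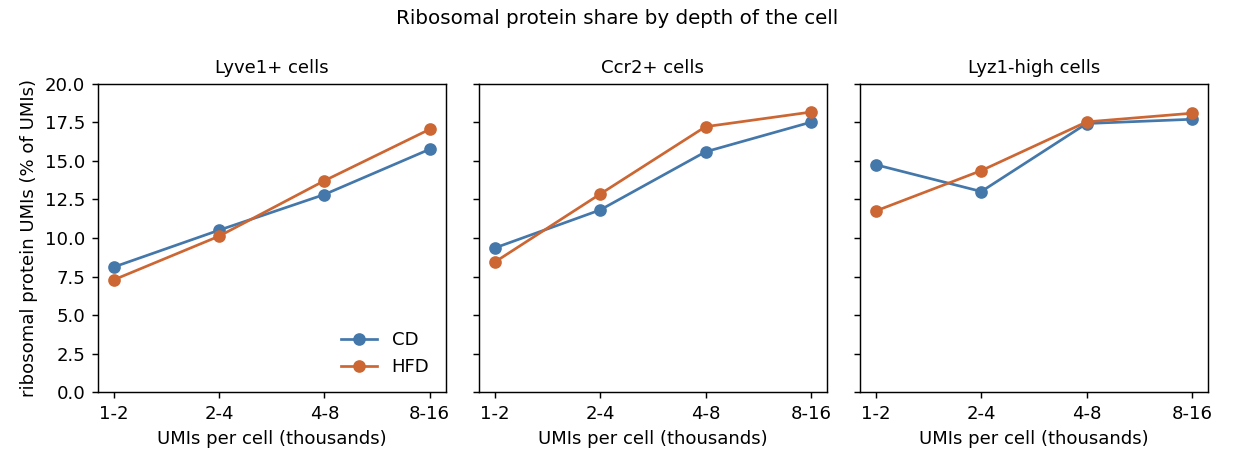
Ribosomal protein share of summed UMIs (vertical axis, %) in cells of 4 ranges of UMIs per cell (horizontal axis, in units of 1000) for Lyve1+, Ccr2+ and Lyz1-high cells of the CD and HFD libraries. In Lyve1+ cells the lines cross, from 8.11% in CD and 7.28% in HFD in the shallowest range to 12.8% and 13.7% at 4000 to 8000 UMIs, and the lowest Lyz1-high range holds only 6 CD cells.

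Over all kept cells the share was 14.8% in CD and 15.4% in HFD, a difference of 0.586 points (0.554 to 0.618), although it was not higher in HFD in any class when cells were divided by *Lyve1* and *Lyz1* without overlap. Lyve1+ cells that were not Lyz1-high had 11.7% in CD and 10.6% in HFD. Lyz1-high cells without *Lyve1* had 17.7% and 17.7%. Cells that were both had 16.8% and 16.4%, and cells that were neither had 15.1% and 13.4%. The class with *Lyz1* alone held 29.96% of UMIs in CD and 51.2% in HFD, and the class with *Lyve1* alone 34.9% and 11.4%. Weighted by the CD mix of UMIs, the HFD shares summed to 13.9%, below the CD value of 14.8%.

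Lyz1-high cells had a far higher ribosomal protein share than resident cells in both libraries. The share of Lyz1-high cells exceeded that of Lyve1+ cells by 4.76 points in CD (4.72 to 4.81) and by 5.03 points in HFD (4.97 to 5.10). Between cells in only one of those 2 gates, the gap was 5.99 points in CD and 7.11 points in HFD. In cells of 2000 to 4000 UMIs, the 2 gates as a whole differed by 2.51 points in CD (2.32 to 2.70, from 40 Lyz1-high cells) and 4.25 points in HFD (4.10 to 4.40). In cells of 4000 to 8000 UMIs they differed by 4.60 points in CD (4.53 to 4.68) and 3.81 points in HFD (3.68 to 3.94).

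Nearly every member took part in that gap, in cells that were not matched for depth or RNA quality. Lyve1+ cells that were not Lyz1-high had a median of 3800 UMIs in CD and 2064 in HFD. Lyz1-high cells without *Lyve1* had medians of 7923.5 and 6438 UMIs. In these 2 classes, mt- UMIs were 4.77% in Lyve1+ and 2.67% in Lyz1-high cells in CD, and 4.39% and 2.26% in HFD. *Malat1* and *Neat1* together made up 3.21% and 1.74% in CD, and 5.27% and 2.39% in HFD. The part of depth and RNA quality in the gap was not tested. Between cells in only one of the gates, the log2 ratio of CPM, Lyz1-high over Lyve1+, was above 0 for 80 of 83 members in CD (median 0.61) and for 80 of the 81 members with at least 50 UMIs in each class in HFD (median 0.75). Over all genes with 100 UMIs the medians were -0.17 and -0.12. A ratio of 1.5-fold or more was reached by 45 of 83 members in CD, where 11.5% of 6367 genes did so, and by 67 members in HFD, where 13.8% of 4808 genes did. No member was 1.5-fold or more lower in Lyz1-high cells in either library, where 25.3% of genes in CD and 23.4% in HFD were. Across the 81 members, the departures of this ratio from the members' median in CD and in HFD had a Pearson r of 0.85 and a Spearman rho of 0.81, a description over genes that share the chemistry, the gating and their sequence.

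*Rplp0*, which anchors the stalk that calls elongation factors to the ribosome, led the contrast. Its level was 1099 CPM in Lyve1+ and 2512 CPM in Lyz1-high cells in CD, a log2 ratio of 1.19 (1.14 to 1.24). In HFD the levels were 1141 and 2635 CPM, a log2 ratio of 1.21 (1.12 to 1.30). Its partner *Rplp1*, which binds to it as a dimer with *Rplp2*, was nearly level instead. *Rplp1* had 2783 CPM in Lyve1+ and 2766 CPM in Lyz1-high cells in CD (log2 ratio -0.01, -0.05 to 0.03), and 1996 and 2446 CPM in HFD (0.29, 0.22 to 0.37). *Rplp2* lay between them, with log2 ratios of 0.61 in CD and 0.65 in HFD. The 3 stalk genes thus did not share 1 gradient between resident and Lyz1-high cells.

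*Rps29*, a small zinc-binding protein of the small subunit head, had 8054 CPM in Lyve1+ and 7946 CPM in Lyz1-high cells in CD (log2 ratio -0.02) and 6249 and 7938 CPM in HFD (0.35). *Rpl7*, of the large subunit, had log2 ratios of 0.20 in CD and 0.37 in HFD. *Rps27rt* had 0.06 and -0.07, with intervals that held 0. Together with *Rplp0* on the high side and *Rplp1* on the low side, these were 5 members, 4 of them low. Among the 81 members with at least 50 UMIs in each class, only these departed the same way in both libraries. A departure was a log2 ratio of 0.32 or more from the members' median. By that rule 74.8% of 2364 genes departed, with the distance taken from the members' median, which lay above that of all genes in both libraries, and nothing is read from that share. *Rps27l*, the p53-responsive paralog of *Rps27*, had log2 ratios of 1.01 (0.92 to 1.10) in CD and 0.995 (0.82 to 1.17) in HFD, and *Rpsa*, the laminin receptor precursor, had 0.96 and 0.83.

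**Figure D3:**
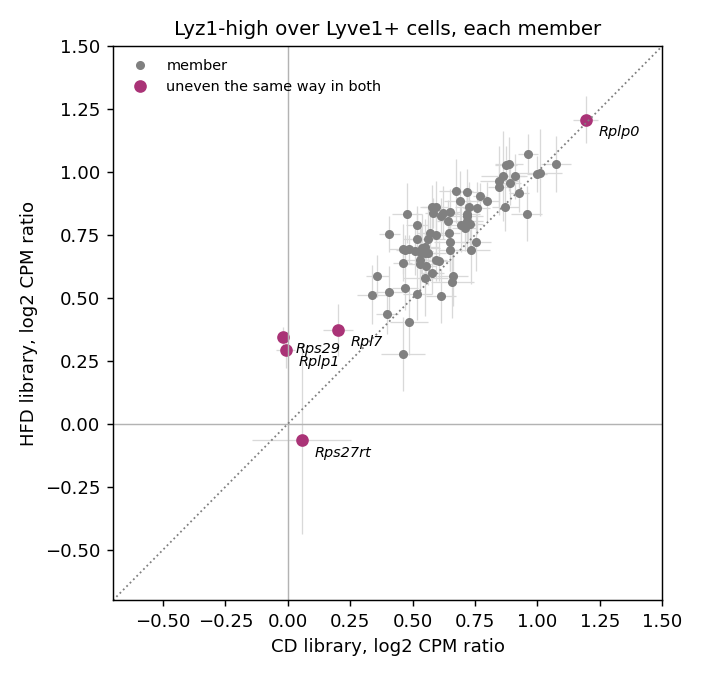
Log2 ratio of CPM, Lyz1-high over Lyve1+ cells, for the 81 members with at least 50 UMIs in all 4 classes, in CD (horizontal axis) and HFD (vertical axis), with 95% counting intervals. Points lie above 0 on both axes for nearly all members, *Rplp0* is highest (1.19 and 1.21), and *Rplp1*, *Rps29*, *Rpl7* and *Rps27rt* stand below the rest on the CD axis, while *Rpl22l1* (0.28) is also low on the HFD axis.

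Between the diets the members stayed close together. In Lyve1+ cells the log2 ratio of CPM, HFD over CD, had a median of -0.02 and an SD of 0.15 over 81 members with at least 50 UMIs in each library, against an SD of 0.38 over 3340 genes with as many. The medians were 0.03 in Ccr2+, -0.03 in Lyz1-high and -0.02 in Plac8+ cells, with SDs of 0.14, 0.14 and 0.14 against 0.36, 0.32 and 0.35. The members' narrower spread also goes with their high counts. No member differed by 1.5-fold or more in any of the 4 gates. In Lyve1+ cells 4.79% of 6073 genes were that much higher in HFD and 6.8% lower. In Ccr2+ cells these were 3.08% and 6.71% of 7867 genes. In Lyz1-high cells they were 2.99% and 4.67% of 6460 genes, and in Plac8+ cells 5.4% and 5.75% of 870 genes.

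A member was called uneven where its log2 ratio lay 0.32 or more from the members' median with an interval that did not hold it. This was so for 4 of 81 members in Lyve1+ cells (25.5% of 3340 genes by the same rule), 2 of 83 in Ccr2+ cells (21.2% of 7323 genes), 2 of 83 in Lyz1-high cells (18.4% of 6137 genes) and 1 of 80 in Plac8+ cells (21% of 710 genes). The uneven members of Lyve1+ cells were *Rps27rt*, *Rplp1* and *Rps21* on the low side and *Rplp0* on the high side. Those of Ccr2+ cells were *Rps27rt* and *Rpl7l1*, both low. Those of Lyz1-high cells were *Rps27rt*, low, and *Rps27*, high. In Plac8+ cells the 1 uneven member was *Rpl12*, low. Among Lyve1+ cells that were not Lyz1-high, only *Rplp1*, low (-0.48), and *Rpl36al*, high (0.19), were uneven, around a members' median of -0.15. *Rps27rt*, *Rps21* and *Rplp0* were not uneven in that class. None of the uneven members of Lyve1+ or Lyz1-high cells was called uneven among the fewer cells in exactly 1 of the 4 gates. A member with fewer than 50 UMIs in either library could not be called there. *Rps27rt* had 100 UMIs in all HFD Lyve1+ cells and 501 in all CD Lyz1-high cells. Its not being called is therefore not read as a loss of the departure. *Rplp0*, *Rplp1* and *Rps21* had 2197, 2917 and 1147 UMIs over all HFD Lyve1+ cells. *Rps27* had 19946 UMIs over all CD Lyz1-high cells. These more abundant members did not meet the rule among cells in exactly 1 gate, and the cause was not tested. *Rps27rt* was still uneven in Ccr2+ cells of exactly 1 gate. *Rpl12* was not uneven in Plac8+ cells with at most 5% mt- UMIs.

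**Figure D4:**
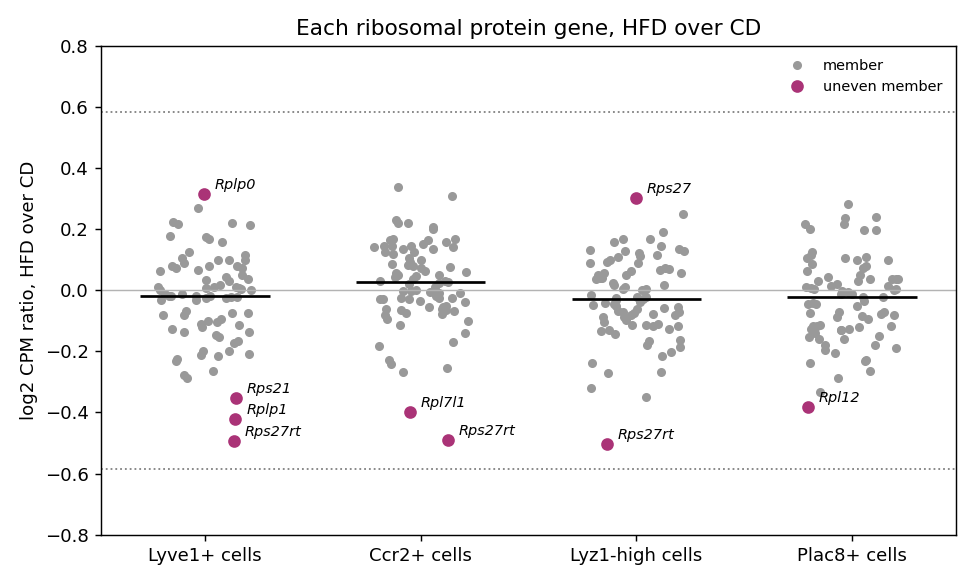
Log2 ratio of CPM, HFD over CD (vertical axis), of every member with at least 50 UMIs in each library, in 4 gates, with the members' median as a black line and 1.5-fold as dotted lines. All points lie inside the dotted lines, and uneven members are named, with *Rps27rt* lowest in Lyve1+, Ccr2+ and Lyz1-high cells (-0.49, -0.49 and -0.50).

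*Rps27*, a zinc-finger protein of the small subunit, and its retrogene *Rps27rt* differed between the diets in opposite directions. *Rps27rt*, on chromosome 9 from 114982366 to 114982739, had 102 CPM in CD and 72.6 CPM in HFD in Lyve1+ cells, 109 and 77.4 CPM in Ccr2+ cells, and 105 and 74.2 CPM in Lyz1-high cells. It was lower in HFD in each, by log2 ratios of -0.49 (-0.82 to -0.18), -0.49 (-0.65 to -0.33) and -0.50 (-0.71 to -0.30). *Rps27*, on chromosome 3 from 90212522 to 90213651, had 3230 CPM in CD and 3765 CPM in HFD in Lyve1+ cells, 3973 and 5026 CPM in Ccr2+ cells, 4189 and 5164 CPM in Lyz1-high cells, and 4961 and 6040 CPM in Plac8+ cells. Its log2 ratios were 0.22 (0.18 to 0.27), 0.34 (0.32 to 0.36), 0.30 (0.27 to 0.33) and 0.28 (0.19 to 0.38). In Lyve1+ cells that were not Lyz1-high, *Rps27* had 2999 CPM in CD and 3215 CPM in HFD. *Rps27rt* had 103 and 79.4 CPM there. *Rps27rt* made up 2.66% (2.50 to 2.84) of the UMIs of the pair in Ccr2+ cells in CD and 1.52% (1.38 to 1.66) in HFD. The pair is uncertain as 2 genes, because 341 of the 374 bases of the annotated *Rps27rt* transcript are an unbroken copy of the 345-base *Rps27* transcript, and reads from within that copy fit both. How such reads were counted is not given in the sources used here.

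The other paralog pairs can be told apart better, with 64.4% to 84.2% identity over their aligned transcript stretches. *Rpl22l1* made up 40.9% (40.0 to 41.8) of the UMIs of the *Rpl22* pair in Ccr2+ cells in CD and 40.7% (39.7 to 41.8) in HFD. In Lyve1+ cells it made up 43.4% (42.1 to 44.7) and 46.5% (44.0 to 49.0), with intervals that overlapped. *Rpl36al* made up 35.1% (34.3 to 35.9) of the *Rpl36a* pair in Ccr2+ cells in CD and 35.0% (34.2 to 35.9) in HFD. In Lyve1+ cells it made up 35.8% (34.7 to 36.9) and 37.7% (35.6 to 39.9). In those that were not Lyz1-high it made up 35.6% (34.3 to 36.9) and 40.0% (37.1 to 42.9), and these intervals did not overlap. *Rps27l* made up 13.5% (13.2 to 13.8) of its pair with *Rps27* in Ccr2+ cells in CD and 10.7% (10.4 to 11.1) in HFD, with *Rps27l* itself at 620 and 604 CPM. *Rpl7l1*, a ribosome assembly factor related to *Rpl7*, had 43.1 CPM in CD and 32.7 CPM in HFD in Ccr2+ cells, a log2 ratio of -0.40 (-0.65 to -0.15), while *Rpl7* had 0.06 (0.01 to 0.10).

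Among the stalk genes, *Rplp0* and *Rplp1* lay on opposite sides of the members' median. In Lyve1+ cells *Rplp0* had 1283 CPM in CD and 1595 CPM in HFD (log2 ratio 0.31, 0.25 to 0.38), and *Rplp1* had 2837 and 2118 CPM (-0.42, -0.48 to -0.36). In Ccr2+ cells *Rplp0* had 2166 and 2503 CPM (0.21) and *Rplp1* 2770 and 2301 CPM (-0.27). In Lyz1-high cells the ratios were 0.13 and -0.22, and in Plac8+ cells 0.02 and -0.29. The gap between the 2 genes was therefore widest in Lyve1+ cells and had the same sign in all 4 gates. *Rplp2* was closer to the median, at -0.08, -0.05, -0.11 and -0.15. In Lyve1+ cells that were not Lyz1-high, *Rplp0* was nearly level between the diets, at 1099 CPM in CD and 1141 CPM in HFD. *Rplp1* had 2783 and 1996 CPM there. Of all member UMIs, the 3 stalk genes made up 4.76% in CD and 4.43% in HFD in Lyve1+ cells, 4.55% and 4.26% in Ccr2+ cells, 4.51% and 4.29% in Lyz1-high cells, and 4.51% and 4.14% in Plac8+ cells.

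*Rps21*, of the small subunit, had 1064 CPM in CD and 833 CPM in HFD in Lyve1+ cells, a log2 ratio of -0.35 (-0.45 to -0.26), and ratios of -0.23, -0.27 and -0.27 in Ccr2+, Lyz1-high and Plac8+ cells. *Rpl12*, which sits at the base of the stalk, had 696 CPM in CD and 534 CPM in HFD in Plac8+ cells from 190 and 211 UMIs, a log2 ratio of -0.38 (-0.67 to -0.09). Its ratios in Lyve1+, Ccr2+ and Lyz1-high cells were -0.29, -0.18 and -0.27. Both genes were thus lower in HFD in each gate, with intervals below 0. *Rpl35* was chosen after its values were seen, as a member just short of that limit on the high side. It had 1912 CPM in CD and 2304 CPM in HFD in Lyve1+ cells and log2 ratios of 0.27, 0.31, 0.25 and 0.24 across the 4 gates. In Lyve1+ cells that were not Lyz1-high, *Rpl35* had 1671 CPM in CD and 1771 CPM in HFD. *Rps21* had 988 and 746 CPM there, and *Rpl12* 417 and 318 CPM.

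*Rpl3*, whose protein reaches the peptidyl transferase centre, had log2 ratios between 0.08 and 0.15 in the 4 gates. *Rpl10*, which joins late in assembly of the large subunit, had between -0.02 and 0.17. *Rpl39*, in the exit tunnel, had between -0.16 and 0.02. *Rps4x*, on the X chromosome, had between 0.00 and 0.05, and *Rpsa* between -0.08 and 0.07. *Rps19bp1*, which encodes no ribosomal protein, had 26.6 CPM in CD and 34.9 CPM in HFD in Lyve1+ cells, from 143 and 48 UMIs. The interval of its log2 ratio, -0.11 to 0.87, held 0.

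The subunits had similar proportions in both libraries. Small subunit genes made up 46.3% of member UMIs in CD and 46.2% in HFD in Lyve1+ cells, 45.4% and 45.4% in Ccr2+ cells, 45.3% and 45.3% in Lyz1-high cells, and 44.7% and 45.6% in Plac8+ cells. Members with a pyrimidine tract in the start window had median log2 ratios, HFD over CD, of -0.02 in Lyve1+, -0.00 in Ccr2+, -0.06 in Lyz1-high and -0.11 in Plac8+ cells, and members without one had 0.01, 0.08, 0.02 and 0.01. In the contrast of Lyz1-high over Lyve1+ cells, the medians were 0.65 and 0.59 in CD and 0.77 and 0.75 in HFD.

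*Fau* and *Rack1* encode ribosomal proteins under names that the rule does not take in. *Fau*, a fusion of a ubiquitin-like domain with a small subunit protein, had log2 ratios, HFD over CD, of -0.11 in Lyve1+, 0.02 in Ccr2+, -0.05 in Lyz1-high and -0.06 in Plac8+ cells. *Rack1*, a scaffold on the small subunit, had 0.06, -0.02, -0.12 and 0.24. *Rps27a*, a member that is made as a fusion with ubiquitin, had 0.01, -0.01, -0.10 and -0.05.

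**Figure D5:**
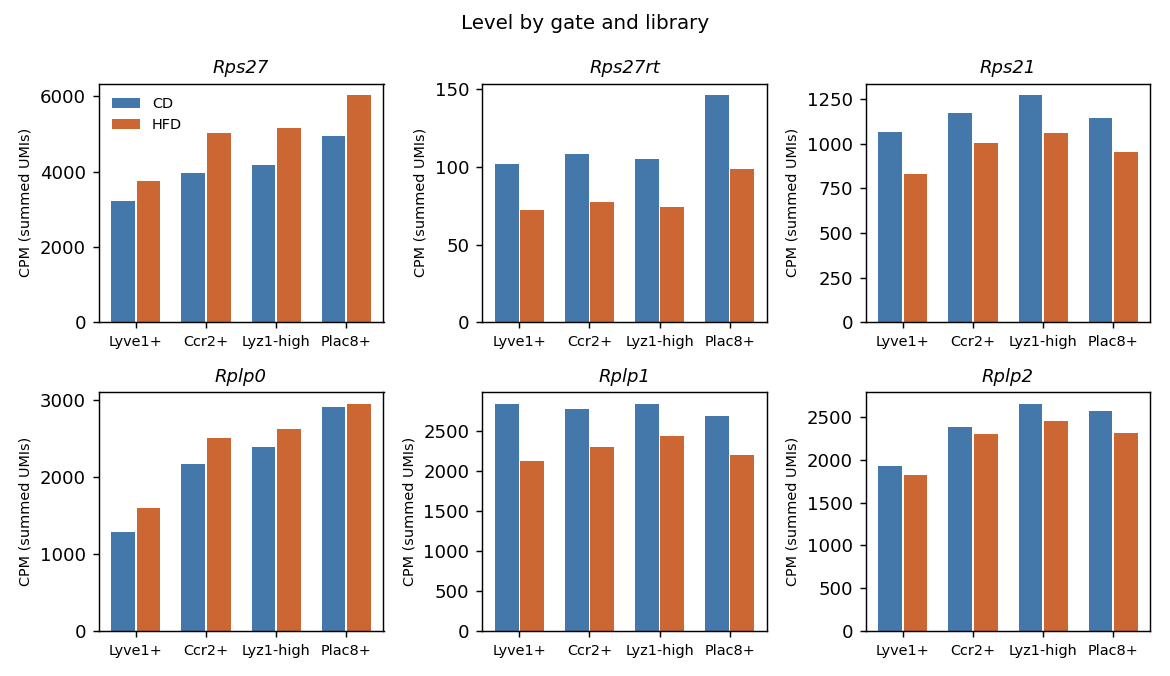
Level (CPM of summed UMIs, vertical axes from 0) of *Rps27*, *Rps27rt*, *Rps21* and the 3 stalk genes in 4 gates of the CD and HFD libraries. *Rps27* is higher in HFD in each gate (3230 and 3765 CPM in Lyve1+ cells), *Rps27rt* and *Rps21* are lower in HFD in each gate, and *Rplp0* and *Rplp1* differ in opposite directions.

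Genes that work with the ribosome were read from lists over the same gates. Of 16 elongation and other translation genes, 0 differed by 1.5-fold between the diets in any gate, and their median log2 ratios were 0.13 in Lyve1+, 0.11 in Ccr2+ and 0.07 in Lyz1-high cells. *Pabpc1*, the poly(A)-binding protein whose mRNA is regulated like those of ribosomal proteins, had 0.31, 0.27 and 0.21. Of the ribosome assembly genes with 100 UMIs in Lyve1+ cells, 5 of 18 were 1.5-fold or more higher in HFD and 0 lower, with a median of 0.23, beside 4.79% of all genes higher. These were *Nolc1*, *Rrs1*, *Nop16*, *Nop56* and *Gar1*, at 32 to 68 UMIs in HFD. In Ccr2+ cells 1 of 27 was higher, beside 3.08% of all genes, and in Lyz1-high cells 2 of 23, beside 2.99%. In Plac8+ cells 0 of 3 were higher and 1 was lower, beside 5.4% and 5.75% of all genes. Of the translation control genes, which include *Larp1* and *Rps6kb1*, 0 of 9 in Lyve1+ cells differed by 1.5-fold, and of mitochondrial ribosome genes 1 of 67 was higher and 2 were lower, with a median of 0.04. The shares of all genes in that gate were 4.79% higher and 6.8% lower. Among Lyve1+ cells that were not Lyz1-high, the median of the elongation and other translation genes was -0.002, beside 0.04 over all genes. There 2 of 9 translation control genes and 6 of 15 ribosome assembly genes were 1.5-fold or more higher. Of mitochondrial ribosome genes, 1 of 62 was higher and 5 were lower. The shares of all genes were not counted in that class.

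RNA of other cell types differed between the libraries within the gates. Over all kept cells the 17 marker genes summed to 699 CPM in CD and 720.5 CPM in HFD. The 17 marker genes summed to 67.8 CPM in CD and 38.5 CPM in HFD in Lyve1+ cells, to 281 and 23.2 CPM in Ccr2+ cells, and to 48.7 and 19.6 CPM in Lyz1-high cells. In Plac8+ cells they summed to 1860 and 32.9 CPM, and 477 UMIs of the stromal gene *Dcn* came from 1 CD cell. *Cd3e* and *Ms4a1* were at 0 in all kept cells of both libraries. Without the cells that had a UMI of any of the 17, the ribosomal protein share differed by -0.145 points in Lyve1+ cells, 0.587 in Ccr2+ cells and 0.0409 in Lyz1-high cells. In Plac8+ cells it then differed by 0.847 points (0.622 to 1.07), with HFD higher.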

How the data were processed

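Single-cell counts came from 1 CD and 1 HFD library. The authors deposited 10x matrices of whole-number UMI counts per gene and barcode (10x Genomics 3′ V2; Cell Ranger 3.0.2 in the submitters' processing notes), not normalized. The counts do not record read length or mappability, and 3′ counts were not scaled by transcript length. Ratios of CPM were therefore taken within a gene only. The percentages of paralog pairs, stalk genes and subunits set genes side by side as unscaled UMIs. Cells, gates and members were taken as given in the report. UMIs were summed per gate and library and divided by all UMIs of the gate. Intervals at 95% were Clopper-Pearson for shares, Newcombe for differences of shares and exact conditional binomial for ratios of CPM. Ratios were counted at 1.5-fold among genes with at least 100 UMIs in the gate, and as uneven at a log2 distance of 0.32 or more from the members' median with at least 50 UMIs in each library. Genes were named as the uneven members, the gate contrast members that departed the same way in both libraries, listed paralog pairs, stalk genes, *Rpsa*, *Rps27a* and *Rps19bp1*. Names with -ps (9 genes) held 0.087% of member UMIs and were left out. Positions and transcripts were from GENCODE M21 (GRCm38) and start windows from RefSeq. Doublets were not removed in the values reported. Scrublet's own threshold called 2 cells in each library, which is too few to have worked, so the highest scores were left out as an alternative. Of the listed genes that are not members, 1 is not reported here. The members and lists were chosen with earlier results of these data known. The functions were tested on simulated data. Python 3.11.15, scipy 1.17.1 and scanpy 1.11.5 were used.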

Additional observations from a re-analysis of the deposited data

Results flagged for a closer look

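The ribosomal protein share differed between HFD and CD in opposite directions in 2 pairs of gates, each time with counting intervals on either side of 0. It was -0.210 percentage points in Lyve1+ cells, 0.604 points in Ccr2+ cells and 0.0602 points in Lyz1-high cells. The difference between gates was not tested, since each diet was 1 library. Lyve1+ and Ccr2+ cells overlapped by 497 cells in CD and 154 in HFD, which were 37.5% and 13.6% of the Ccr2+ cells.

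Cells left out of the main comparisons also carried ribosomal protein RNA. Those with over 20% mt- UMIs had a share of 4.496% in CD (1135 cells) and 4.65% in HFD (335 cells), and cells outside 200 to 3500 genes had 16.4% in CD (36 cells) and 19.2% in HFD (10 cells). In both, the HFD interval lay above that of CD. Cells with 10% to 20% mt- UMIs had the opposite order, at 6.43% in CD (924 cells) and 5.48% in HFD (797 cells).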

How the results depend on the processing

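No paired analysis was possible because each diet was 1 library. Over 9 alternatives per share, Lyz1-high cells exceeded Lyve1+ cells in 9 of 9 in each library, while the sign of the HFD minus CD difference changed in at least 1 alternative in every gate. All shares below are differences in percentage points, in the order Lyve1+, Ccr2+, Lyz1-high and Plac8+ cells for HFD minus CD where 4 are given, and Lyz1-high minus Lyve1+ is given for CD and then HFD. The cause of the changes was not tested. With at most 5% mt- UMIs, HFD minus CD was 0.179 in Lyve1+, 0.539 in Ccr2+ and -0.524 in Plac8+ cells, Lyz1-high minus Lyve1+ was 3.998 and 3.93, and uneven members numbered 2 in Lyve1+ and 0 in Plac8+ cells. With at most 20%, HFD minus CD was 0.644 in Ccr2+ and 0.114 in Lyz1-high cells, and the gate difference 5.17 and 5.50. With at least 1000 genes per cell, HFD minus CD was 0.766, 0.881, 0.117 and 0.354, the gate difference 4.61 and 3.96, and uneven members in Plac8+ cells 2. In cells of exactly 1 gate, HFD minus CD was -1.71, -1.63, -2.30 and -3.20, the gate difference 7.20 and 6.61, and uneven members 1 in Lyve1+, 7 in Lyz1-high and 2 in Plac8+ cells. With gates read after thinning each cell to 1000 UMIs, HFD minus CD was -1.52 in Lyve1+, 0.312 in Ccr2+ and -0.133 in Lyz1-high cells, the gate difference 5.56 and 6.95, and uneven members 2 in Lyve1+ and 6 in Plac8+ cells. Without the cells of highest doublet score (159 barcodes in CD and 80 in HFD), HFD minus CD was -0.110 in Lyve1+ cells and the gate difference in CD 4.91. Without cells that had a UMI of another cell type, HFD minus CD was -0.145 in Lyve1+ and 0.847 in Plac8+ cells, the gate difference 5.004 and 5.19, and uneven members in Plac8+ cells 5. Leaving mt- UMIs out of the denominator gave -0.317 in Lyve1+, 0.501 in Ccr2+ and -0.0311 in Lyz1-high cells, and 4.67 and 4.96 between gates. Medians over cells gave -1.93 in Lyve1+, 1.06 in Ccr2+ and -0.395 in Plac8+ cells, and 5.94 and 7.92 between gates. Centring at the median of all genes gave 4 uneven members in Ccr2+ cells, and a limit of 1.5-fold gave 0 in each of the 4 gates. In cells of 2000 to 4000 UMIs, an alternative chosen after seeing the data, HFD minus CD was -0.389, 1.03, 1.36 and -3.19, the gate difference 2.51 and 4.25, and uneven members 8 in Ccr2+, 12 in Lyz1-high and 4 in Plac8+ cells. In cells of 4000 to 8000 UMIs, likewise chosen then, HFD minus CD was 0.892 in Lyve1+, 1.63 in Ccr2+ and 0.612 in Plac8+ cells, the gate difference 4.60 and 3.81, and uneven members 5 in Lyz1-high and 3 in Plac8+ cells. The ratios of the named members that had a log2 size of 0.32 or more and an interval clear of 0 changed sign under none of the 9 cell alternatives, where 50 UMIs per library remained. Their sizes did move. Of the named ratios, 62 of 68 left their main interval in cells of exactly 1 gate and 27 of 82 after thinning. The counts were 50 of 68 at 2000 to 4000 UMIs and 48 of 80 at 4000 to 8000 UMIs. Under the other alternatives they were 0 to 12 of 83. *Rps27rt* was uneven in Ccr2+ cells under all 9 cell alternatives. Plac8+ values rest on 42 and 73 cells.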
